A study of Mus musculus with 2 samples.

Results

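Hedgehog signaling in the mouse uterus was followed here through 9 genes of the 32285 features counted: the ligand gene Ihh, its receptor gene Ptch1, the signal transducer Smo, the transcription factors Gli1, Gli2 and Gli3, the ligand-binding inhibitor Hhip, the GLI-binding repressor Sufu, and Nr2f2, a nuclear receptor of the uterine stroma. The 9 genes are a list chosen by name, with earlier results of these data known. They were matched by symbol to the feature table, where each had 1 entry. Single cells of whole uterus were taken at gestational day 3.5, in 1 library per genotype. The library labelled knockout came from female tissue of genotype Pgrcre/+ Mig-6f/f, which carries floxed Mig-6 alleles and 1 Cre allele driven from the progesterone receptor gene Pgr, so that recombination is directed to cells that use this gene. The control library came from female tissue of genotype Mig-6f/f, with the same floxed alleles and no Cre. The submitters give n = 1, and do not say whether that is 1 animal or pooled tissue. Mig-6 is the protein of Errfi1, a feedback inhibitor of the epidermal growth factor receptor. With 1 library per genotype no test was made, every difference below is one between these 2 libraries, and all intervals are 95% intervals that cover counting error only.

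In Hedgehog signaling, a secreted ligand binds the Patched receptor, which otherwise holds Smoothened inactive. Released Smoothened acts at the primary cilium, and GLI proteins then switch on target genes, among them Gli1, Ptch1 and Hhip, so that levels of these targets are widely used as a readout of the pathway. In the mouse uterus before implantation, progesterone induces Indian hedgehog (Ihh) in the epithelium, and the ligand acts on the stroma beneath, where Nr2f2 (COUP-TFII) is part of the response.

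The regions upstream of the ligand gene and of the 2 members that differed by more than 2-fold in stromal barcodes are printed here, since GLI proteins and general promoter factors act through such sequence. Each is the 250 bases before the annotated transcript start, read 5′ to 3′ on the gene's strand, from RefSeq on GRCm38.p6. All 3 genes lie on the minus strand: Ihh at chr1:74951673-74951922, Ptch1 at chr13:63565736-63565985 and Hhip at chr8:80058009-80058258. Capitals mark the GC box GGGCGG or its reverse complement, the letters bound by Sp1-type factors in many promoters.
Ihh: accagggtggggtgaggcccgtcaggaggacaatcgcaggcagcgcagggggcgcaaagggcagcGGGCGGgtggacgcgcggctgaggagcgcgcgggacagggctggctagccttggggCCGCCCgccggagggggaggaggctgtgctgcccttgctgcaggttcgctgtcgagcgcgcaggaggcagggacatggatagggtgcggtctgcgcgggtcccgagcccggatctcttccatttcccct
Ptch1: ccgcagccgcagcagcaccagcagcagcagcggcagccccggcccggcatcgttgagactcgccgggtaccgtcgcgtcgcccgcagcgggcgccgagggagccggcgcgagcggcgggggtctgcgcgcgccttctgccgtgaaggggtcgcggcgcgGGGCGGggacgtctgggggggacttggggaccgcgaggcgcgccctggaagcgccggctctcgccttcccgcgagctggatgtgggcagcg
Hhip: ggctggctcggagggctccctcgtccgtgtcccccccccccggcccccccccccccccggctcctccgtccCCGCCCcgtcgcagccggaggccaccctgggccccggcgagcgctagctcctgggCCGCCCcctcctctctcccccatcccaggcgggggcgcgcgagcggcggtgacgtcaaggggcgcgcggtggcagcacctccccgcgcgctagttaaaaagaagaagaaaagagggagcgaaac
The Ihh window held 2 GC boxes and was 72.0% G or C, the Ptch1 window held 1 and was 78.4% G or C, and the Hhip window held 2 and was 76.0% G or C. On either strand, GGGCGG was found in 6 of 8 member windows (Ihh, Ptch1, Gli2, Gli3, Hhip and Sufu) and in 10756 of 32851 windows of all genes (32.7%). The GLI consensus GACCACCCA was searched on both strands, and 0 of 8 member windows held it exactly or with 1 mismatch allowed, against 0.225% and 5.79% of all windows. A match or its lack describes these letters in these windows. Gli1 had no entry and was not searched.

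The libraries held 3118 barcodes and 23317904 unique molecular identifiers (UMIs) in the library labelled knockout, and 4627 barcodes and 44871170 UMIs in the control, with medians of 4695 and 9090 UMIs per barcode. They shared 3 barcode sequences. Barcodes were kept if they had 500 or more genes and no more than 15% mitochondrial UMIs. A barcode was epithelial with at least 10 per 10000 of its UMIs on Epcam, Krt8, Krt18 and Cldn7 together, and stromal with at least 10 per 10000 on Dcn, Col1a2 and Col3a1. The library labelled knockout gave 1457 epithelial, 1055 stromal and 408 other barcodes, with median depths of 9643, 3642 and 2050.5 UMIs. The control gave 738 epithelial, 3333 stromal and 344 other barcodes, with median depths of 11793, 8943 and 5832 UMIs. Another 31 barcodes labelled knockout and 47 control barcodes passed both gates and entered neither class. Barcodes under both gates were called immune (Ptprc, Cd52, Laptm5, Coro1a and Tyrobp), endothelial-like or mural-like where they reached 10 per 10000 on exactly 1 of these marker lists. Levels are UMIs of a gene per 1000000 UMIs of its class and library (CPM).

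The class names held against markers that the gates did not use. Epithelial markers outside the gate (Cdh1, Krt19, Krt7, Cldn3, Cldn4, Elf3 and Wfdc2) summed to 8804 and 7069 CPM in epithelial barcodes of the library labelled knockout and the control, against 58.1 and 55.4 CPM in their stromal barcodes. The stromal sums hide opposite differences. Cldn3 was at 1.51 CPM in stromal barcodes labelled knockout against 42.2 CPM in the control, and each of the other epithelial markers was higher in stromal barcodes labelled knockout, among them Wfdc2 at 39.5 against 10.7 CPM, a ratio of 3.69 (3.03 to 4.48), and Cdh1 at 4.28 against 0.519 CPM, a ratio of 8.25 (3.92 to 17.4). The epithelial gate genes summed to 21.4 CPM there in the library labelled knockout and 6.49 CPM in the control. Their part in the stromal values of the members was not tested. Stromal markers outside the gate (Lum, Pdgfra, Pdgfrb, Col6a1, Col6a2, Mmp2, Vcan and Hoxa11) summed to 4053 and 2838 CPM in stromal barcodes. In epithelial barcodes they were at 0.763% of the stromal level in the library labelled knockout and 1.70% in the control. The stromal gate genes summed to 24.4 and 31.5 CPM in epithelial barcodes, beside 3752 and 3677 CPM in stromal ones. The target of the deletion went against the label in the stroma: Errfi1 was at 727.9 CPM in stromal barcodes of the library labelled knockout against 194.4 CPM in the control, a ratio of 3.74 (3.58 to 3.91), and at 512.3 against 571.5 CPM in epithelial barcodes. The labels do not say which part of the gene the allele removes, so these UMIs do not settle which cells had recombined.

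Ihh was the member with the largest difference between the libraries and was counted mostly in epithelial barcodes in both. In the library labelled knockout 19 Ihh UMIs were counted in epithelial barcodes, a level of 1.06 CPM (0.636 to 1.65), and in the control 376 UMIs, 34.4 CPM (31.1 to 38.1). The epithelial level was 32.6-fold lower in the library labelled knockout (20.6 to 54.8), and the intervals of the 2 levels did not overlap. Ihh UMIs were found in 17 of 1457 epithelial barcodes labelled knockout (1.17%, exact binomial interval 0.681 to 1.86%) and in 172 of 738 control barcodes (23.3%, 20.3 to 26.5%). When each barcode was thinned to 2000 UMIs, the shares averaged 0.279% in the library labelled knockout and 6.63% in the control over all possible draws, so the order held at equal depth. Thinned shares and ratios are such averages unless 1 random draw is named. An averaged ratio equals the ratio of mean per-barcode levels over barcodes of at least 2000 UMIs. It weighs these barcodes equally but, unlike the shares, does not itself equalise depth. The ratio of levels, 0.0307 over all UMIs, was 0.0366 in the thinned barcodes, 0.0252 in 1 random draw of them (3 against 61 UMIs), and 0.0480 in barcodes of 2000 to 6000 UMIs (5 against 6 UMIs). Thinning left out 52 epithelial, 109 stromal and 199 other barcodes labelled knockout, and 17, 30 and 28 in the control, that were shallower than this. Immune barcodes, which are not a known source of Ihh, had it in 0 of 186 barcodes labelled knockout and 0 of 163 control barcodes, at median depths of 1777.5 and 5507 UMIs. By 3 counts of the total this allows shares of barcodes with an Ihh UMI of up to 1.61% and 1.84%, and the exact 95% upper limits were 1.96% and 2.24%. Neither limits the share of cells that express Ihh.

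The fewer positive barcodes also held fewer molecules each, at the depths given above. Of the 17 positive barcodes labelled knockout, 15 held 1 Ihh UMI and 2 held 2. Of the 172 positive control barcodes, 78 held 1, 47 held 2 and 47 held 3 or more, up to 10. Stromal barcodes had 0 Ihh UMIs in the library labelled knockout and 3 in the control, both at or under the limit of 3 counts used here, and other barcodes had 0 in both. Barcodes that passed both gates had 0 Ihh UMIs in the library labelled knockout and 29 in 8 of 47 barcodes in the control (54.7 CPM), at least 4.43-fold lower against a floor of 3 counts. All 19 Ihh UMIs of the library labelled knockout were thus in epithelial barcodes, and in the control 92.2% of 408 were, with 7.11% in barcodes over both gates.

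Within the epithelium, Ihh was lower in the library labelled knockout in glandular barcodes too, but by a smaller factor than elsewhere. Barcodes with at least 20 per 10000 UMIs on the gland genes Foxa2, Cxcl15, Prss28 and Prss29 numbered 55 in the library labelled knockout and 95 in the control. Among them Ihh was at 14.2 CPM (6 UMIs in 5 barcodes) in the library labelled knockout and at 45.9 CPM (58 UMIs in 27 barcodes) in the control, 3.22-fold lower (1.39 to 9.14). Outside the gland range it was at 0.740 CPM (13 UMIs) and 32.9 CPM (318 UMIs), 44.5-fold lower (25.7 to 84.5). The intervals of these folds did not overlap. Gland-range barcodes stood 19.2-fold over the other epithelial barcodes in Ihh in the library labelled knockout (5.99 to 54.2) and 1.39-fold over them in the control (1.03 to 1.85). The gland list itself was lower in the gland-range barcodes labelled knockout, at a summed 7931 CPM against 16660 CPM in the control, and its part in the Ihh values was not tested.

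**Figure D1:**
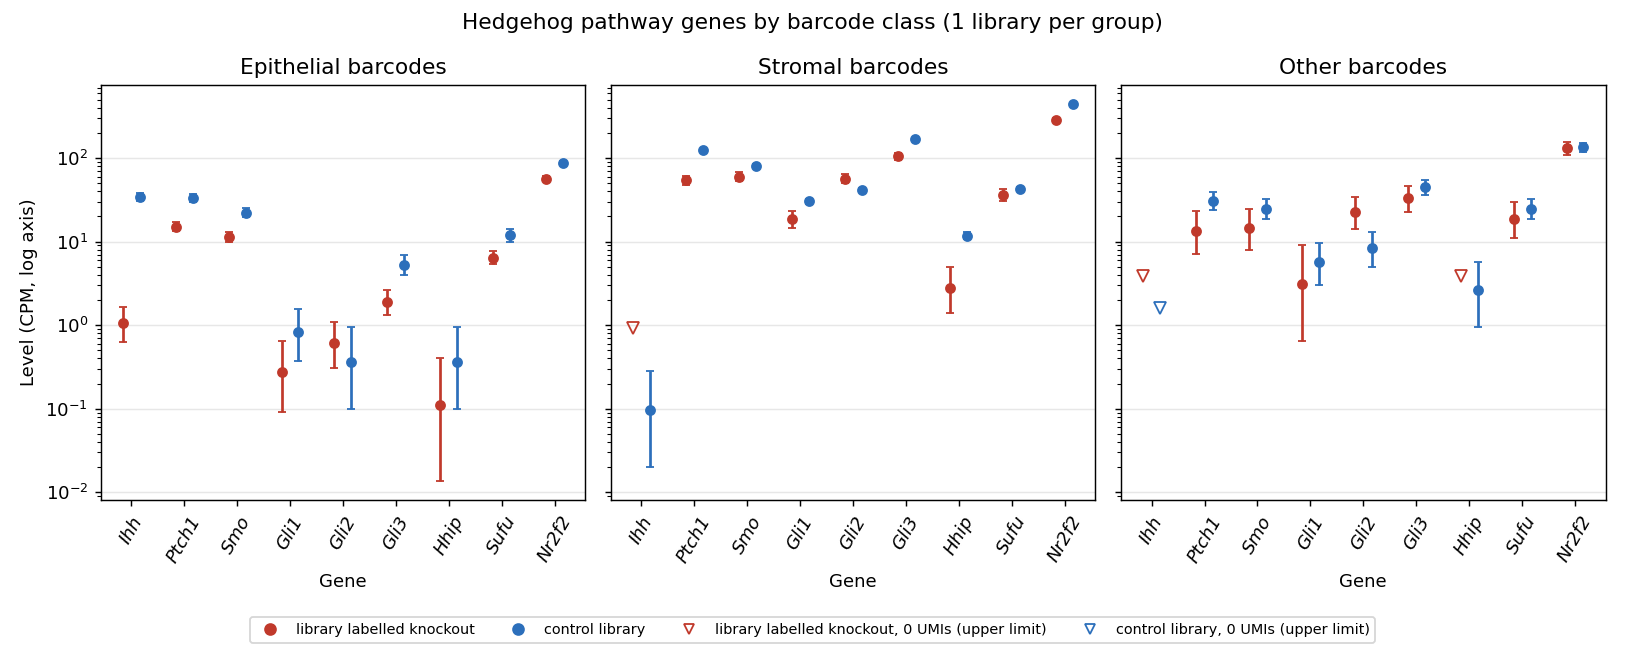
Level of each gene in CPM (log axis) in epithelial, stromal and other barcodes, with the library labelled knockout in red to the left of the control in blue. Bars are exact Poisson 95% intervals, and open triangles mark the upper limit where 0 UMIs were counted. Epithelial Ihh lies at 1.06 CPM in the library labelled knockout against 34.4 CPM in the control, and Gli2 is the stromal gene with the higher level in the library labelled knockout.

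Ptch1, the receptor that is also a Hedgehog target, was lower in all 3 classes of the library labelled knockout. In stromal barcodes it had 215 UMIs and 54.1 CPM (47.1 to 61.9) in the library labelled knockout, against 3871 UMIs and 125.5 CPM (121.6 to 129.5) in the control, 2.32-fold lower (2.02 to 2.67). In epithelial barcodes it was at 15.1 CPM (272 UMIs) against 33.3 CPM (364 UMIs) in the control, 2.20-fold lower (1.88 to 2.59). In other barcodes it was at 13.5 CPM (13 UMIs) against 31.0 CPM (71 UMIs), 2.29-fold lower (1.26 to 4.52). The intervals of these folds overlapped. After thinning, the ratio was 0.396 in stromal, 0.457 in epithelial and 0.603 in other barcodes, so Ptch1 in other barcodes was then within 2-fold. That value rests on the 209 of 408 other barcodes labelled knockout, and 316 of 344 in the control, that had at least 2000 UMIs. Other barcodes were a mixture. Those not on exactly 1 of the immune, endothelial and mural lists (105 labelled knockout, 89 control) held 4 and 40 Ptch1 UMIs. Their ratio was 0.219 (0.0570 to 0.607), and their stromal markers outside the gate summed to 1804 and 1586 CPM. In immune, endothelial-like and mural-like barcodes each interval of the Ptch1 ratio included 1.

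Stromal barcodes with a Ptch1 UMI made up 16.1% in the library labelled knockout (170 of 1055) and 54.8% in the control (1825 of 3333), and 8.91% and 20.5% after thinning to 2000 UMIs. Most positive stromal barcodes labelled knockout held a single molecule: 141 held 1, 16 held 2 and 13 held 3 or more. In the control 884 held 1, 460 held 2 and 481 held 3 or more. These counts were at unequal depths, with stromal medians of 3642 and 8943 UMIs. Immune barcodes had Ptch1 in 0 of 186 barcodes labelled knockout and in 8 of 163 control barcodes (4.91%). Taking the immune level of each library away left epithelial Ptch1 within 2-fold, at a ratio of 0.629, since the subtraction applied to the control alone.

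The ordering of the classes by Ptch1 was the same in each library. Stromal barcodes stood 3.58-fold over epithelial barcodes in the library labelled knockout (2.98 to 4.29) and 3.77-fold in the control (3.38 to 4.203). Epithelial and other barcodes could not be ordered, with ratios of 1.12 (0.644 to 2.13) and 1.08 (0.833 to 1.41). Epithelial Ptch1 was 28.0% of its stromal level in the library labelled knockout and 26.6% in the control, beside 0.763% and 1.70% for the summed stromal markers. Since the classes differed in size, 53.2% of all Ptch1 UMIs of the library labelled knockout came from epithelial and 42.1% from stromal barcodes, against 8.37% and 89.0% in the control.

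Barcodes in the stromal gate that also reached 10 per 10000 on the mural list (Myh11, Actg2, Cnn1, Rgs5, Notch3, Acta2 and Des) were 336 of 1055 in the library labelled knockout and 211 of 3333 in the control. These barcodes were not alike in the mural list. It summed to 1860 CPM in those labelled knockout, where its highest gene was at 1473 CPM. In those of the control it summed to 7190 CPM, with its highest gene at 2919 CPM. The part of this difference in the ratios of members with the mural list was not tested. In all stromal barcodes Des, an intermediate filament gene, was at 752.1 CPM in the library labelled knockout against 421.8 CPM in the control, while the smooth muscle myosin gene Myh11 was at 8.31 against 38.5 CPM. Ptch1 was at 45.5 against 94.7 CPM in the barcodes with the mural list and at 57.7 against 127.1 CPM in those without it, so it was lower in the library labelled knockout in each.

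Smo, the transducer under Patched control, was lower by a smaller factor in stroma than in epithelium over all UMIs. Its stromal level was 59.9 CPM (238 UMIs) in the library labelled knockout and 80.6 CPM (2486 UMIs) in the control, a ratio of 0.743 (0.648 to 0.849). Its epithelial level was 11.5 CPM against 22.3 CPM in the control, a ratio of 0.515 (0.425 to 0.622). The 2 intervals did not overlap. With the immune level of each library taken away, the ratios were 0.802 in stroma and 0.674 in epithelium. In barcodes of 2000 to 6000 UMIs they were 0.692 and 0.691, the epithelial one from 24 against 2 UMIs, so the classes did not differ there. In other barcodes the ratio was 0.585 (0.301 to 1.06), which includes 1. In stromal barcodes with the mural list the Smo ratio was 1.07 (0.781 to 1.45), and in those without it 0.699 (0.592 to 0.821). Stromal Smo was detected in 18.8% of barcodes labelled knockout and 47.7% of control barcodes, and in 11.4% and 14.7% after thinning.

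The GLI genes were stromal in both libraries, and they did not move together. Stromal barcodes exceeded epithelial ones 67.0-fold in Gli1, 93.0-fold in Gli2 and 55.6-fold in Gli3 in the library labelled knockout, and 36.7-fold, 112.3-fold and 31.7-fold in the control. Epithelial Gli2 was 1.08% of its stromal level in the library labelled knockout and 0.890% in the control, and epithelial Gli1 was 1.49% and 2.72%, beside 0.763% and 1.70% for the summed stromal markers. The part of stromal RNA in these epithelial levels was not tested. No Gli1, Gli2 or Gli3 UMI was found in the 186 and 163 immune barcodes.

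Gli1, an activator and the target most often used to report pathway activity, was at 18.6 CPM (74 UMIs, 14.6 to 23.4) in stromal barcodes of the library labelled knockout and at 30.3 CPM (934 UMIs, 28.4 to 32.3) in the control, 1.63-fold lower (1.28 to 2.09). It was detected in 6.54% of stromal barcodes labelled knockout and 24.0% of control barcodes, and in 3.32% and 5.97% after thinning. The thinned ratio was 0.565, close to the 0.615 over all UMIs. In 1 random draw, which left 25 Gli1 UMIs in the library labelled knockout against 203 in the control, it was 0.430, so single draws of so few UMIs vary. In other barcodes it had 3 UMIs in the library labelled knockout against 13 in the control.

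Gli2, the main activator of the pathway in mouse embryos, went the other way and was the only member of the 8 measured in stroma with a ratio above 1. Its stromal level was 56.9 CPM (226 UMIs, 49.7 to 64.8) in the library labelled knockout and 41.2 CPM (1269 UMIs, 38.9 to 43.5) in the control, a ratio of 1.38 (1.20 to 1.59). After thinning it was detected in 10.1% of stromal barcodes labelled knockout and 7.61% of control barcodes, whereas over all UMIs the shares were 17.4% and 26.9% at unequal depths. The ratio was 2.14 (1.47 to 3.13) in barcodes with the mural list and 1.27 (1.06 to 1.502) in those without. Other barcodes held Gli2 at 22.9 CPM (22 UMIs) in the library labelled knockout and 8.29 CPM (19 UMIs) in the control, a ratio of 2.76 (1.43 to 5.39).

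Gli3, whose processed form is the main repressor of the pathway, was lower in stroma in the library labelled knockout. It was at 105.2 CPM (418 UMIs, 95.4 to 115.8) in stromal barcodes labelled knockout and at 168.3 CPM (5190 UMIs, 163.7 to 172.9) in the control, a ratio of 0.625 (0.565 to 0.691). It was detected in 28.4% of stromal barcodes labelled knockout and 65.9% of control barcodes, and in 17.2% and 26.7% after thinning. Epithelial Gli3 was low, at 1.89 CPM (34 UMIs) against 5.31 CPM (58 UMIs), a ratio of 0.356 (0.226 to 0.553), and 0.148 when each barcode had equal weight. Those levels were 1.80% and 3.16% of the stromal ones, and the part of stromal RNA in them was not tested either. In mural-like barcodes outside both gates Gli3 was at 82.0 CPM (13 UMIs) against 105.9 CPM (18 UMIs), with a ratio interval that includes 1.

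Hhip, which binds Hedgehog ligands at the surface of responding cells and is itself a target, had the largest stromal difference among the members. It had 11 UMIs, 2.77 CPM (1.38 to 4.95), in stromal barcodes labelled knockout and 365 UMIs, 11.8 CPM (10.7 to 13.1), in the control, 4.28-fold lower (2.36 to 8.64). All 11 positive barcodes labelled knockout held 1 UMI, whereas of the 212 positive control barcodes 135 held 1, 42 held 2 and 35 held 3 or more, up to 10. These counts were at unequal depths, with stromal medians of 3642 and 8943 UMIs. Thinned shares were 0.484% in the library labelled knockout and 2.12% in the control, and the thinned ratio was 0.192. In 1 random draw, with 2 against 83 UMIs, it was 0.0841. In barcodes with the mural list 2 Hhip UMIs were counted in the library labelled knockout against 27 in the control, and 9 against 338 in barcodes without it. Other barcodes held 0 against 6 Hhip UMIs.

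Sufu, which holds GLI proteins in the cytoplasm, was at 35.99 CPM (143 UMIs) in stromal barcodes labelled knockout and 42.7 CPM (1316 UMIs) in the control, a ratio of 0.843 (0.705 to 1.003) whose interval includes 1. In stromal barcodes without the mural list the ratio was 0.791 (0.636 to 0.973), an interval that leaves out 1. In those with the mural list it was 1.29 (0.842 to 1.965), an interval that includes 1. Over all stromal barcodes it was 0.620 with the immune level of each library taken away. In epithelial barcodes it was at 6.45 CPM (116 UMIs) with 131 UMIs in the control, giving a ratio of 0.538 (0.415 to 0.696). Sufu was the member with the most UMIs in immune barcodes, 8 in the library labelled knockout and 19 in the control. These immune levels, 21.7 and 19.6 CPM, were over its epithelial ones, so subtracting them takes away more than free RNA if immune cells express Sufu. That was not tested.

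Nr2f2 was lower in both stroma and epithelium of the library labelled knockout. Its stromal level was 286.4 CPM (1138 UMIs, 270.0 to 303.6) in the library labelled knockout and 439.3 CPM (13547 UMIs, 431.9 to 446.7) in the control, a ratio of 0.652 (0.613 to 0.693). Its epithelial level was 56.9 CPM against 87.4 CPM, giving a ratio of 0.651 (0.596 to 0.712). Thinned ratios were 0.645 in stromal and 0.725 in epithelial barcodes. Gland-range epithelial barcodes had a ratio of 1.26 (0.798 to 1.94), whose interval includes 1. Stromal barcodes stood 5.04-fold over epithelial ones in the library labelled knockout and 5.03-fold in the control. Nr2f2 was found in 57.0% of stromal barcodes labelled knockout and 92.3% of control ones, and in 39.7% and 55.5% after thinning. In other barcodes it did not differ beyond counting error, at 131.0 and 134.0 CPM, giving a ratio of 0.978 (0.788 to 1.21). Mural-like barcodes outside both gates carried 447.6 CPM in the library labelled knockout and 364.8 CPM in the control, endothelial-like ones 92.8 and 119.8 CPM, and immune ones 0 and 6 UMIs.

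**Figure D2:**
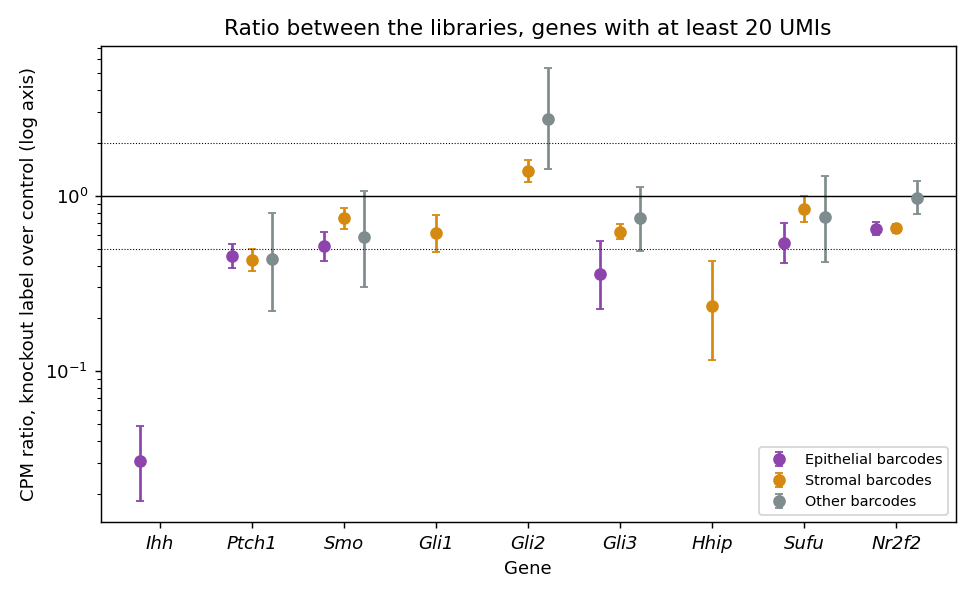
Ratio of the level in the library labelled knockout over that in the control (log axis) for each gene with at least 20 UMIs in a class, with exact 95% intervals. The solid line is a ratio of 1 and the dotted lines are 2-fold either way. Ptch1 lies between 0.431 and 0.454 in all 3 classes, Ihh at 0.0307 in epithelium, and Gli2 above 1 in stromal and other barcodes.

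**Figure D3:**
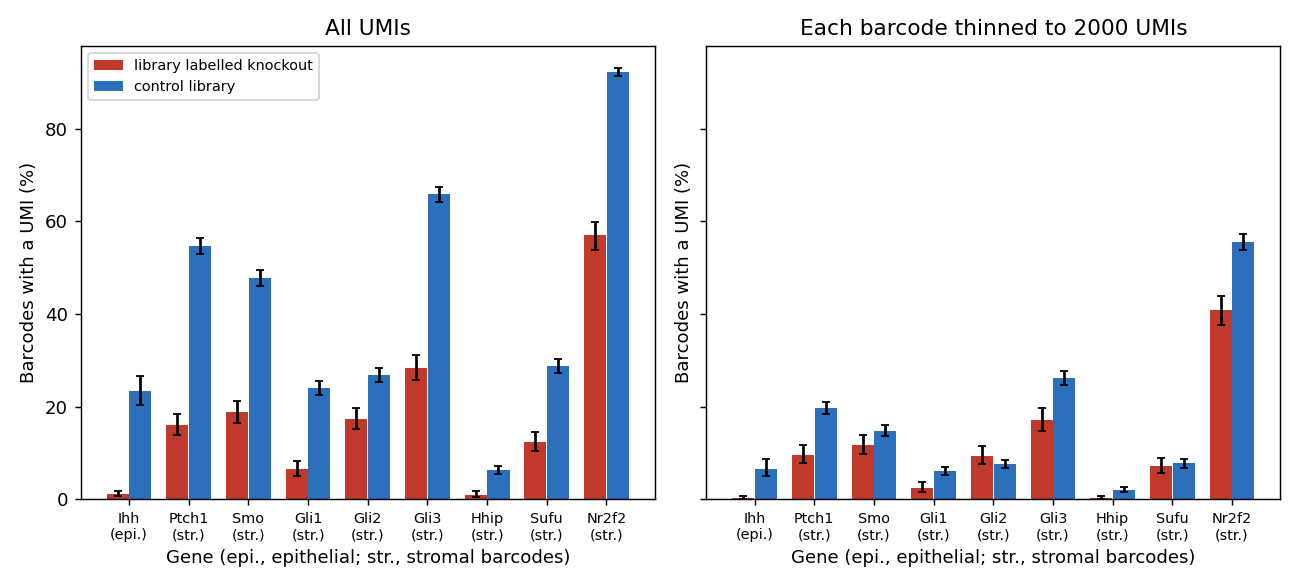
Percent of barcodes with at least 1 UMI, for Ihh in epithelial and the other genes in stromal barcodes, before (left) and after (right) each barcode was thinned to 2000 UMIs. The library labelled knockout is in red to the left of the control in blue, and bars are exact binomial 95% intervals. The thinned panel is 1 random draw, in which the order for Gli2 turns, to 9.41% in the library labelled knockout against 7.63% in the control.

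Members were counted as different where the ratio passed 2-fold either way among genes with at least 20 UMIs over both libraries. The list was chosen with earlier results of these data known, so the all-gene shares beside it give scale and are not a test. Epithelial Ihh (19 against 376 UMIs) and stromal Hhip (11 against 365) reached 20 UMIs only through the control. In stroma 8 of 9 members were measured at that depth. Of these, 2 were at least 2-fold lower in the library labelled knockout (Ptch1 and Hhip), against 12.7% of 14602 genes, and 0 were at least 2-fold higher, against 5.61%. Their median log2 ratio was -0.65, beside -0.05 over all genes. In epithelium 6 of 9 members were measured, and 3 were at least 2-fold lower (Ihh, Ptch1 and Gli3), against 15.6% of 13562 genes, and 0 higher, against 4.94%. Their median was -1.05, beside -0.18 over all genes. The epithelial count was 5 when barcodes over both gates were included, or when 1 UMI was enough. It was 2 with a minimum of 100 UMIs or with the immune level taken away, and 0 in barcodes of 2000 to 6000 UMIs. In other barcodes 6 members were measured, with Ptch1 at least 2-fold lower over all UMIs though not after thinning, against 6.06% of 10548 genes, and Gli2 at least 2-fold higher, against 4.12%.

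The epithelial ratios of all genes were shifted, with a median log2 ratio of -0.14 among genes with at least 100 UMIs, against -0.02 in stroma. Relative to that shift the epithelial ratio was 0.0338 for Ihh, 0.4995 for Ptch1, 0.392 for Gli3, 0.567 for Smo, 0.592 for Sufu and 0.717 for Nr2f2, so each of these was lower in the library labelled knockout on either scale.

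Other genes of the pathway were read from lists by role, whose counts are set against the same shares of all genes: 12.7% at least 2-fold lower and 5.61% higher in stroma, and 15.6% and 4.94% in epithelium. These lists too were chosen with earlier results of these data known. Among ligands and the machinery that releases them, Shh had 0 UMIs in epithelial, stromal and other barcodes of both libraries, and Dhh had 5 against 1 UMIs in epithelial and 0 against 7 in stromal barcodes. Of 4 such genes measured in epithelium 0 passed 2-fold. Disp1, the transporter that releases lipid-modified ligand, was at 11.4 CPM in epithelial barcodes labelled knockout against 20.2 CPM in the control, a ratio of 0.566 (0.465 to 0.687). In stroma 1 of 4 was lower and 1 higher. Hhat, the ligand palmitoyltransferase, was at 5.03 against 13.9 CPM, 2.76-fold lower (1.77 to 4.57). Scube2, a secreted protein that helps ligand leave the cell, was at 33.2 against 12.7 CPM, giving a ratio of 2.63 (2.14 to 3.21). Its relative Scube1 was at 164.6 against 111.2 CPM, giving a ratio of 1.48 (1.36 to 1.61).

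Among receptors and co-receptors 2 of 5 were at least 2-fold lower in stroma, against 12.7% of all genes, and 0 higher, against 5.61%. Their median log2 ratio was -0.85, beside -0.05 over all genes. Boc, a co-receptor that binds ligand, was at 12.6 against 27.1 CPM, 2.15-fold lower (1.62 to 2.92). Gpc3, a cell-surface proteoglycan that competes for ligand, was at 23.4 against 123.9 CPM, 5.30-fold lower (4.31 to 6.58), the widest gap of this list in stroma. Gas1, another co-receptor, was at 64.7 against 107.0 CPM, giving a ratio of 0.605 (0.531 to 0.687), and Cdon did not differ beyond counting error in stroma.

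In epithelium 4 of 5 measured receptors and co-receptors were at least 2-fold lower, against 15.6% of all genes, with a median log2 ratio of -2.65 beside -0.18 over all genes. Lrp2, the endocytic receptor megalin that binds Hedgehog ligands among many others, was at 18.0 CPM in the library labelled knockout against 112.7 CPM in the control, 6.27-fold lower (5.54 to 7.11). Cdon was at 7.40 against 23.5 CPM, 3.17-fold lower (2.56 to 3.94). The median of -2.65 is the value of Lrp2. Gas1 and Gpc3, which lie beyond it, had few epithelial UMIs, 7 against 42 and 5 against 28. Epithelial Gas1 was at 0.389 against 3.85 CPM, under its stromal levels of 64.7 and 107.0 CPM. Epithelial Gpc3 was at 0.278 against 2.565 CPM, under its stromal levels of 23.4 and 123.9 CPM. The part of stromal RNA in these epithelial levels was not tested.

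Transducers and cilium genes were mostly within 2-fold. In stroma 2 of 11 other transducers were at least 2-fold lower, a share near the 12.7% of all genes: Evc, a ciliary partner of Smoothened, at 2.77 against 7.78 CPM, 2.81-fold lower (1.54 to 5.71), and Gpr161, a ciliary receptor that keeps the pathway off, at 2.27 against 4.67 CPM (9 against 144 UMIs). In epithelium 1 of 8 was lower, near the 15.6% of all genes: Evc2, with 15 against 43 UMIs. None of 8 primary cilium genes passed 2-fold in stroma. Their median log2 ratio there was -0.42, beside -0.05 over all genes. Below 1 were 7 of 8, against 7936 of 14602 genes. In epithelium 2 of 7 were lower, against 15.6%. Kif3a, a motor subunit that builds cilia, was at 18.2 CPM in the library labelled knockout against 90.7 CPM in the control, 4.99-fold lower (4.40 to 5.67), and Tulp3, a carrier of receptors into cilia, had 23 against 47 UMIs.

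Reported Hedgehog targets other than the members were also read in stroma. All 6 measured had ratios below 1, as had 7936 of 14602 genes, with a median log2 ratio of -0.64 beside -0.05 over all genes. At least 2-fold lower was 1 of the 6, near the 12.7% of all genes. Bcl2, a survival gene, was at 33.0 CPM in the library labelled knockout against 88.8 CPM in the control, 2.69-fold lower (2.26 to 3.23). Ccnd2, a G1 cyclin, was at 46.1 against 88.2 CPM, 1.91-fold lower (1.65 to 2.24). Igf1, a growth factor of the stroma, was at 717.8 against 1052 CPM, giving a ratio of 0.682 (0.657 to 0.709). Foxf2 and Foxl1 had 0 UMIs, and Foxf1 0 against 12 in stroma, so the forkhead targets could not be compared at this depth. In epithelium 2 of 6 targets were at least 2-fold lower, against 15.6% of all genes: Ccnd2 at 23.8 against 68.2 CPM and Igf1 at 4.89 against 14.2 CPM. These Igf1 levels were far under its stromal ones. Summed stromal markers in epithelial barcodes were at 0.763% of their stromal level in the library labelled knockout and 1.70% in the control. The part of stromal RNA in epithelial Igf1 was not tested.

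Of 8 genes of the stromal relay beyond Nr2f2, 1 was at least 2-fold lower in stroma, near the 12.7% of all genes, and 2 were higher, against 5.61%. Hand2, the factor through which stroma restrains epithelial growth, was at 67.7 CPM in the library labelled knockout against 94.98 CPM in the control, a ratio of 0.713 (0.627 to 0.808). Fkbp5, a progesterone-responsive co-chaperone, was at 18.1 against 54.5 CPM, 3.01-fold lower (2.38 to 3.87). Wnt4, a decidual signal, was at 35.2 against 7.85 CPM, giving a ratio of 4.49 (3.62 to 5.55), and Bmp2, which acts with it, was at 56.1 against 23.8 CPM, giving a ratio of 2.36 (2.02 to 2.74). Pgr itself was at 395.2 against 238.6 CPM in stroma, a ratio of 1.66 (1.57 to 1.75). Only the library labelled knockout carries the Cre allele of Pgr, and the part of that allele in the Pgr values of either class was not tested. In epithelium 5 of these 8 genes were at least 2-fold lower, against 15.6% of all genes, Fkbp5 among them at 4.78 against 23.5 CPM. Also among the 5 were Hoxa11, at 0.834 against 1.92 CPM, and Bmp2, at 0.445 against 1.47 CPM. Summed stromal markers in epithelial barcodes were at 0.763% of their stromal level in the library labelled knockout and 1.70% in the control. The part of stromal RNA in these epithelial levels was not tested. Of fibroblast growth factors that Hand2 restrains, 0 of 2 measured in stroma passed 2-fold.

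Of genes known to act upstream of Ihh in the mouse uterine epithelium, 1 of 5 was at least 2-fold lower in epithelial barcodes, near the 15.6% of all genes. Sox17, a factor required for epithelial Ihh, was at 92.2 CPM in the library labelled knockout against 192.0 CPM in the control, 2.08-fold lower (1.95 to 2.22). Gata2 was at 34.3 against 40.4 CPM, giving a ratio of 0.848 (0.749 to 0.961), and Arid1a at 61.6 against 75.1 CPM, giving a ratio of 0.820 (0.748 to 0.898). Epithelial Pgr was at 61.6 against 49.9 CPM, giving a ratio of 1.23 (1.11 to 1.37), and Esr1 at 479.5 against 564.7 CPM.

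**Figure D4:**
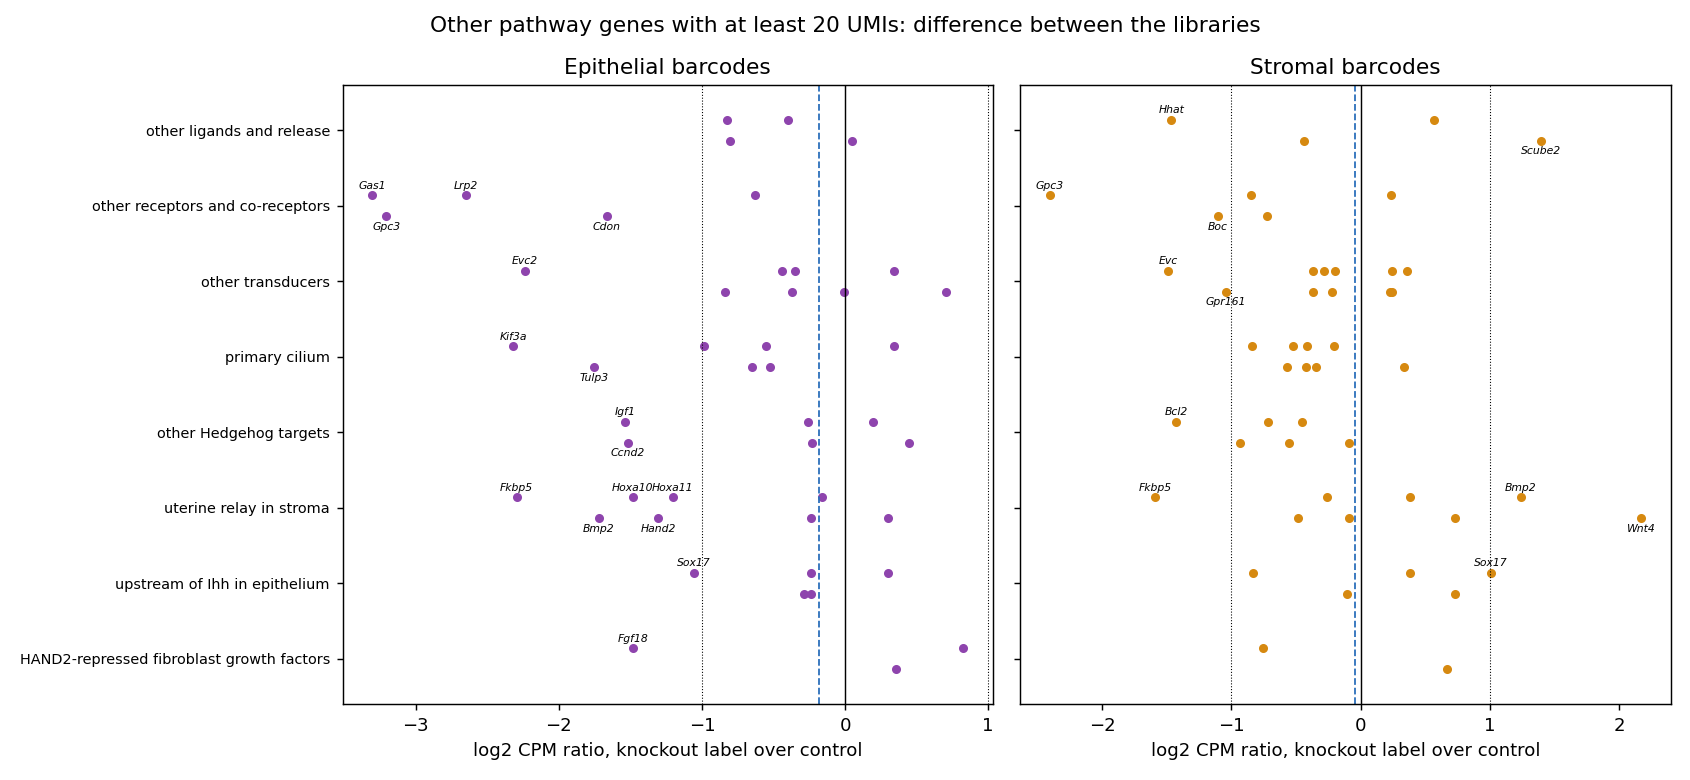
Log2 ratio of the level in the library labelled knockout over that in the control for other pathway genes with at least 20 UMIs, by list, in epithelial (left) and stromal (right) barcodes. The solid line is no difference, dotted lines are 2-fold, the dashed blue line is the median of all genes with at least 20 UMIs (-0.18 and -0.05), and genes beyond 2-fold are named. The epithelial receptor list has a median of -2.65, which is the value of Lrp2. Gas1 and Gpc3, which lie beyond it, had 7 and 5 UMIs in the library labelled knockout.

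Genes with the profile most like that of Ihh and of Ptch1 were ranked by Euclidean distance between centred log2(CPM + 1) profiles over 6 points, the 3 classes in each library, among 13409 genes with at least 100 UMIs. Nearest to Ihh were 2300002M23Rik (distance 0.582), Dcaf12l1 (0.798), Wnt7a (0.861), Ms4a8a (0.867) and Pla2g10 (0.930). Wnt7a, a luminal WNT ligand, was at 2.17 CPM in epithelial barcodes labelled knockout against 22.6 CPM in the control, and 2300002M23Rik was at 0.890 against 29.1 CPM. Nearest to Ptch1 were Acot1 (0.297), D630045J12Rik (0.460), Flrt2 (0.554), Rcor2 (0.577) and Zfp185 (0.582). Acot1, an acyl-CoA thioesterase, was at 62.9 CPM in stromal barcodes labelled knockout against 162.6 CPM in the control, and at 20.4 against 48.2 CPM in epithelial ones. No gene of the pathway lists was among the 10, and the 6 points share 2 libraries and their depths.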

How the data were processed

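The deposited matrices give raw UMI counts of each gene in each barcode. Per the file headers, the authors ran Cell Ranger 7.0.1 to obtain them. The submitters' processing notes also name Seurat and mm39, with no further detail. The members and gene lists were chosen with earlier results of these data known. Barcodes were filtered and gated as stated above, with no clustering. Doublets were left in, and an alternative removed the highest Scrublet scores (70 barcodes labelled knockout, 159 control). UMIs were summed per class and library. Thinned values are exact averages over all hypergeometric draws, or 1 seeded draw where so named. 1 gene of the receptor list is not reported here. Levels carry exact Poisson, shares exact binomial (Clopper-Pearson) and ratios exact conditional 95% intervals, and the ratio script was tested on simulated data. The genes named are the 9 members, the genes of fixed pathway lists, and the 5 nearest profiles of Ihh and of Ptch1. The reference genome was GRCm38, another build than the files', so promoter sequences and their coordinates come from the RefSeq table alone. Tools were Python 3.11.15, numpy 2.4.6, scipy 1.17.1, pandas 2.3.3, scanpy 1.11.5 and matplotlib 3.10.9.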

Additional observations from a re-analysis of the deposited data

Results flagged for a closer look

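Taking the 66 list genes and Errfi1 together, 7 differed from the control in opposite directions in the 2 main classes. For each, the 95% counting intervals of the epithelial and stromal ratios lay on opposite sides of 1. That rule was not applied to all genes, so no background share stands beside the 7. The differences between classes were not tested, since each rests on 1 library per genotype, and none of the 9 members was among the 7. The epithelial ratio over the stromal ratio was 0.239 for Errfi1, whose ratios were 0.896 in epithelium and 3.74 in stroma. It was 0.129 for Bmp2, at 0.445 against 1.47 CPM in epithelium and 56.1 against 23.8 CPM in stroma (labelled knockout against control). It was 0.653 for Esr1 and 0.662 for Spop, an adaptor of GLI protein degradation, both lower in epithelium and higher in stroma, and 0.552 for Arl13b, a ciliary GTPase, in the same direction. Prkacb, a catalytic subunit of protein kinase A, was higher in epithelium and lower in stroma, at 1.98. Ift172, an intraflagellar transport subunit, had the same direction, at 2.27 with 19 stromal UMIs labelled knockout against 264 in the control.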

How the results depend on the processing

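No paired analysis was possible because each genotype has 1 library. Filters, gate thresholds, doublets, pooling, scaling, thinning and subtraction of the level in immune barcodes were varied one at a time. A restriction to barcodes of 2000 to 6000 UMIs was added after seeing the data. The immune level exceeded epithelial Sufu in both libraries, so that subtracted ratio could not be computed. In these settings no ratio that could be computed for a member with at least 20 UMIs in epithelial or stromal barcodes changed direction. Within subsets of barcodes some did. Smo was at 1.07 and Sufu at 1.29 in stromal barcodes with the mural list, and Nr2f2 at 1.26 in gland-range epithelial barcodes. The interval of each of these subset ratios includes 1. Stromal barcodes with the mural list differed in that list, which summed to 1860 CPM in the library labelled knockout and 7190 CPM in the control. In other barcodes, which were recomputed only by thinning, the Gli3 ratio was 0.747 over all UMIs (32 against 102) and 1.05 after thinning, averaged over all draws. Thinning left out 199 of 408 other barcodes labelled knockout and 28 of 344 in the control. The epithelial Ihh ratio ran from 0.0252 to 0.0480, stromal Ptch1 from 0.359 to 0.466, stromal Gli1 from 0.430 to 0.685, stromal Hhip from 0.0841 to 0.278, and stromal Gli2 from 1.22 to 1.53. The lowest Ptch1 value, 0.359, came from barcodes of 2000 to 6000 UMIs (172 against 302 UMIs), and the lowest Gli1 and Hhip values, 0.430 and 0.0841, from 1 random draw of 2000 UMIs per barcode. Averaged over all draws these were 0.565 and 0.192. Members beyond 2-fold in epithelium numbered 3 in the values reported and 4 with a gate of 20 per 10000. They numbered 5 with barcodes over both gates counted in both classes, and 5 with a minimum of 1 UMI. With a minimum of 100 UMIs, or the immune level subtracted, they numbered 2. With barcodes of 2000 to 6000 UMIs they numbered 0, where Ihh had 5 against 6 UMIs and was under the minimum. Among the other values of members, 92 moved by less than their counting interval and 12 by more. Epithelial Ptch1 was within 2-fold at 0.629 after the immune level was subtracted. The causes of these shifts were not tested. Depth limits Gli1 and Hhip outside stroma, where counts are near the floor of 3.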

Other observations

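Hedgehog targets were looked at barcode by barcode in stroma thinned to 2000 UMIs in 1 random draw. Ptch1 was detected in 4 of 24 Gli1-positive barcodes labelled knockout (16.7%, exact interval 4.74 to 37.4%) and in 9.44% of 922 Gli1-negative ones. In the control it was detected in 38 of 200 Gli1-positive barcodes (19%, 13.8 to 25.1%) and in 19.7% of 3103 Gli1-negative ones. Hhip-positive control barcodes had Ptch1 in 13 of 68 (19.1%) and Hhip-negative ones in 19.7%. The exact intervals of each such pair overlapped in both libraries. Gli3 was found in 31.5% of Gli1-positive control barcodes (25.1 to 38.4%) and 25.8% of Gli1-negative ones (24.2 to 27.4%), intervals that overlap narrowly.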
